A study of Homo sapiens with 112 samples.

Results

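The comparison described here set VCaP cells that received the synthetic androgen R1881 together with 2 µM darolutamide against VCaP cells that received only the vehicle, DMSO, both harvested after 8 h. It used 15 of the 112 libraries of the series, namely 5 libraries with R1881 plus 2 µM darolutamide and 10 with DMSO, chosen by the cell line, agents, doses and time in their labels. Of the 58684 genes listed, 19266 had at least 10 reads in at least 4 of the 55 VCaP libraries and were tested. Hormone had been withdrawn from all cells over the preceding 2 days by culture with 10% charcoal-stripped serum, which is poor in steroids, and R1881 was given at 1 nM. The study asked how darolutamide alters androgen-driven transcription in VCaP and LAPC4 cells, using polyA RNA-seq at 8 and 22 h and darolutamide at 500 nM or 2 µM. The treated cells received androgen and antagonist, in an order the sources used here do not give, and the DMSO cells received neither. The comparison therefore measures how far the early transcriptome with 2 µM darolutamide still stood from the state without androgen. For context, the 10 VCaP libraries with R1881 alone and the 4 with R1881 plus 500 nM darolutamide, all at 8 h, are given beside it. A comparison with 22 h used 8 VCaP libraries with DMSO, 5 with R1881 plus 2 µM darolutamide and 9 with R1881 alone. No group with darolutamide in the absence of R1881 was used here, so an effect of the compound itself and a remaining effect of the androgen cannot be told apart.

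VCaP is a prostate cancer cell line grown from a vertebral metastasis, and it represents a single tumour. It carries the TMPRSS2-ERG rearrangement, which places the transcription factor gene ERG under the androgen-responsive promoter of the serine protease gene TMPRSS2. Androgens bind the androgen receptor in the cytoplasm, the receptor moves into the nucleus, binds enhancers together with pioneer factors such as FOXA1 and raises or lowers the transcription of nearby genes. Darolutamide is a nonsteroidal antagonist that competes with androgen for the ligand-binding pocket of the receptor.

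Sequencing depth was similar in both groups. The 10 DMSO libraries held 12870607 to 21882387 reads on genes, and the 5 libraries with 2 µM darolutamide held 19011403 to 24869001. The mitochondrial share of reads ranged from 1.17% to 1.53% over the 15 libraries. All 11 markers of VCaP and luminal prostate cells were measured well above the count filter, among them KLK2, EPCAM and ERG. Of 16 markers of stromal, endothelial and blood cells, COL1A2, CDH5, CD3E and HBB had 0 reads in all 15 libraries and PTPRC had 6 in total. Others were detected, with totals of 6436 reads for LUM, 1169 for ACTA2, 353 for PDGFRB, 329 for COL1A1, 173 for VWF and 109 for COL3A1. The summed level of these 16 markers was 30.6 to 37.1 CPM (the reads of a gene scaled to a library of fixed size) with DMSO and 13.8 to 16.2 with 2 µM darolutamide, most of it from LUM, which encodes the matrix proteoglycan lumican. The 11 markers of prostate identity summed to 6010 to 6440 CPM with DMSO and to 8320 to 8850 CPM with 2 µM darolutamide. KLK2 held the most reads of these 11, and HOXB13 and FOLH1 fell, as described below. Whether other cells had a part in any result below was not tested.

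At 8 h, 5289 genes (27.5% of those tested) differed between R1881 plus 2 µM darolutamide and DMSO by edgeR's quasi-likelihood test at a Benjamini-Hochberg adjusted p under 0.05. Of these, 2969 (15.4%) were higher and 2320 (12.0%) were lower with the androgen and antagonist. Most differences were small. The median absolute log2 fold change of the called genes was 0.31, with quartiles at 0.20 and 0.55, and 482 genes (2.50%) passed the test with an absolute log2 fold change above 1, 260 of them (1.35%) higher and 222 (1.15%) lower. The same 10 DMSO libraries set against R1881 alone gave 12891 called genes (66.9%), 32.8% of all tested genes higher and 34.1% lower, of which 2818 (14.6%) had an absolute log2 fold change above 1. In 2559 genes (13.3%) the 5 libraries with 2 µM darolutamide and the 10 DMSO libraries did not overlap. The median log2 fold change over all tested genes was -0.01.

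**Figure D1:**
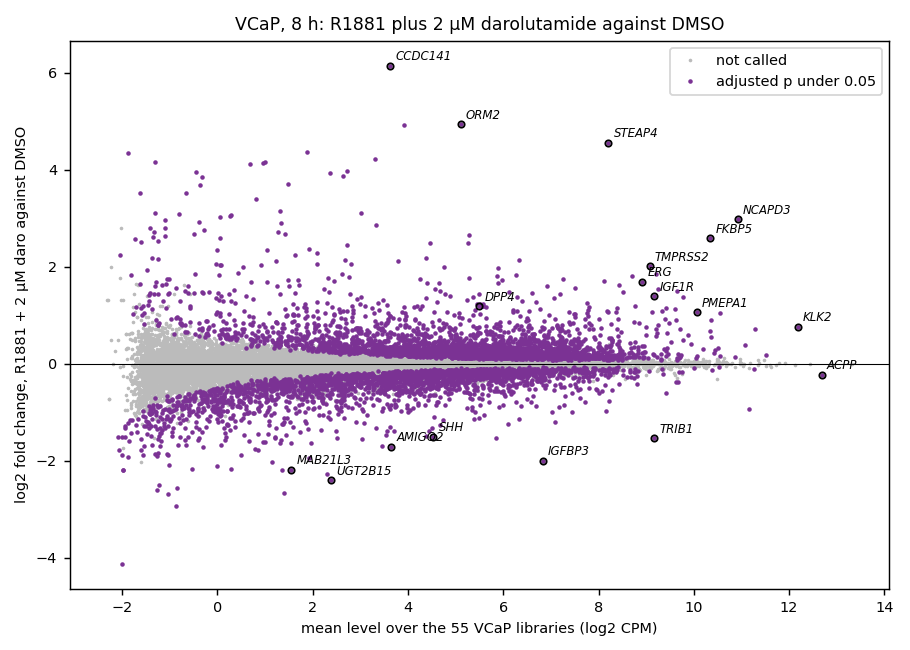
Each point is 1 of the 19266 tested genes, with its mean level over the 55 VCaP libraries on the x axis (log2 CPM) and its log2 fold change between R1881 plus 2 µM darolutamide and DMSO at 8 h on the y axis. The 5289 genes with an adjusted p under 0.05 are in purple and the named genes are circled. CCDC141 lies highest among the named genes at 6.14 and UGT2B15 lowest at -2.41.

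The sequence just before the transcription start is shown for 4 genes whose values are described below. CCDC141 had the largest rise and IGFBP3 the largest fall among the genes above the median level with a promoter in the RefSeq table. The other two were chosen after the search described here, since KLK3 and UGT2B15 were the only genes called in this comparison, among the 71 of 94 named genes with a promoter in the RefSeq table, whose 250-base window held AGAACA or its reverse complement TGTTCT. This hexamer is the core of the element recognised by the androgen and glucocorticoid receptors, and the letters of the 2 orientations cannot overlap. The sequences are from RefSeq (GRCh38.p14), run 5′ to 3′ on the strand of the gene and end at the base before its start, with the hexamer in capitals. They cover chr2:179050138-179050387 (minus strand, CCDC141), chr19:50854665-50854914 (plus strand, KLK3), chr4:68670653-68670902 (minus strand, UGT2B15) and chr7:45921273-45921522 (minus strand, IGFBP3). The RefSeq start of IGFBP3 lies inside the gene as GENCODE 44 places it, so this window is downstream of the outermost GENCODE start.
CCDC141: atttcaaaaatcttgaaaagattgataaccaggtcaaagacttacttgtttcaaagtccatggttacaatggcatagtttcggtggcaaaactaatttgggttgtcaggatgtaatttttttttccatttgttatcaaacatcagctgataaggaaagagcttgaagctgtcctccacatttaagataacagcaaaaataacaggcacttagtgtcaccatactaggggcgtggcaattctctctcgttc
KLK3: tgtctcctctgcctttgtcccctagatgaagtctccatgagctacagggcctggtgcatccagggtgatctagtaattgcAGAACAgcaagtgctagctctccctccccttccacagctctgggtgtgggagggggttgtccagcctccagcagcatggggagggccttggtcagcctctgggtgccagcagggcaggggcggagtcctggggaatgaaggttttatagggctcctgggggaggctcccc
UGT2B15: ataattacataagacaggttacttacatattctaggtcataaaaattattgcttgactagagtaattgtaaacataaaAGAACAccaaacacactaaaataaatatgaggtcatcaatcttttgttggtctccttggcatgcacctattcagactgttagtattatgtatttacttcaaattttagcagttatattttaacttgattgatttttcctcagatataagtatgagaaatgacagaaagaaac
IGFBP3: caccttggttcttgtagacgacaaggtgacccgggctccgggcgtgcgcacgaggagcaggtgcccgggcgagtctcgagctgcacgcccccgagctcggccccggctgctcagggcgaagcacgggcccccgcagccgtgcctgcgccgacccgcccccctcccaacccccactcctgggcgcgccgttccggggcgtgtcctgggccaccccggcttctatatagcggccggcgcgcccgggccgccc

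In KLK3 the hexamer began 170 bases before the start, and in UGT2B15 it began 172 bases before the start. KLK3 rose and UGT2B15 fell. Over the 10749 tested genes with a promoter in the table, 791 windows (7.36%) held the hexamer in either orientation, as did 3397 of all 27305 windows (12.4%). It was in 14 of 147 windows (9.52%) of genes called higher with a log2 fold change above 1 and in 6 of 117 windows (5.13%) of genes called lower by more than 1. The inverted repeat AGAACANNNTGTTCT was in 1 of the 27305 windows and in 0 of those of tested genes. These shares describe the letters near the start and say nothing of binding at distal enhancers.

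The largest rises were in genes that R1881 alone raised further. STEAP4, a metalloreductase of iron and copper uptake, stood at 141, 153, 141, 149 and 142 CPM in the 5 libraries with 2 µM darolutamide and at 4.98, 6.58 and 6.80 CPM (lowest, median and highest) in the 10 DMSO libraries. The lowest treated library lay more than 20 times above the highest DMSO library. Its log2 fold change was 4.56 ± 0.06 (SE), with an edgeR adjusted p of 2.63e-52, and the group with R1881 alone had a median of 392 CPM. NCAPD3, a subunit of condensin II at a locus long known as androgen-induced in prostate cells, had 728, 747, 780, 776 and 729 CPM against 89.5, 96.2 and 102 CPM with DMSO. These groups did not overlap, and the log2 fold change was 2.97 ± 0.04 (edgeR adjusted p = 2.30e-53). FKBP5, a co-chaperone of steroid receptors and a standard read-out of their activity, had 459, 492, 467, 496 and 480 CPM against 71.2, 80.7 and 86.0 CPM, again without overlap. It rose by 2.59 ± 0.04 on the log2 scale (edgeR adjusted p = 1.80e-50), while R1881 alone brought it to a median of 2970 CPM.

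CCDC141 (chromosome 2, 178829757 to 179050137, minus strand, GRCh38) encodes a coiled-coil protein and had the largest fold among the named genes. Its 5 libraries with 2 µM darolutamide were at 14.8, 16.5, 17.4, 17.9 and 16.1 CPM, and the DMSO libraries at 0.14, 0.20 and 0.49 CPM (lowest, median, highest). The rise was 70.8-fold (log2 6.14 ± 0.16, edgeR adjusted p = 2.93e-37), from a DMSO level of only a few reads per library. The acute-phase protein genes ORM1 and ORM2 lie side by side on chromosome 9 and are near-identical, so reads may have been split between them. ORM2 was at 4.59, 4.58, 4.54, 4.86 and 4.69 CPM against 0.09, 0.14 and 0.23 CPM, with no overlap. It rose by 4.94 ± 0.17 and ORM1 by 4.91 ± 0.25 on the log2 scale. For ORM2 the rise with R1881 alone was 8.69, so that the treated libraries stayed far below the 57.4 to 70.6 CPM of that group. EAF2, which encodes a partner of the elongation factor ELL, rose by 2.48 ± 0.09 and the unannotated transcript listed as CTD-2224J9.8 by 2.65 ± 0.07.

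The falls were smaller than the rises. IGFBP3 (chromosome 7, 45912245 to 45921874, minus strand), a secreted binding protein that limits insulin-like growth factors, was at 74.9, 84.2, 81.1, 85.0 and 81.5 CPM with 2 µM darolutamide and at 305, 321 and 390 CPM with DMSO. The groups did not overlap, and the level fell by 2.00 ± 0.07 on the log2 scale (edgeR adjusted p = 5.35e-32), against a fall by 4.84 with R1881 alone. AMIGO2, a cell adhesion protein, fell by 1.72 ± 0.08 and TRIB1, a pseudokinase that directs proteins to degradation, by 1.53 ± 0.06. The hedgehog ligand genes SHH and IHH were among the falls. SHH was at 22.4, 20.8, 25.1, 23.9 and 20.4 CPM against 54.7, 63.9 and 72.8 CPM, a fall by 1.51 ± 0.07 without overlap. IHH fell by 1.49 ± 0.15. PTGER2, a prostaglandin E receptor, was at 7.76, 9.01, 8.24, 7.55 and 8.67 CPM against 21.1, 22.5 and 24.9 CPM, and fell by 1.47 ± 0.08. For PTGER2 the group with R1881 alone, at 4.89 to 8.43 CPM, overlapped the 2 µM group, although the groups differed by 0.32 ± 0.08. The histone variant gene H2AFJ fell by 1.52 ± 0.13 and the orphan receptor gene GPR149 by 1.39 ± 0.10.

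**Figure D2:**
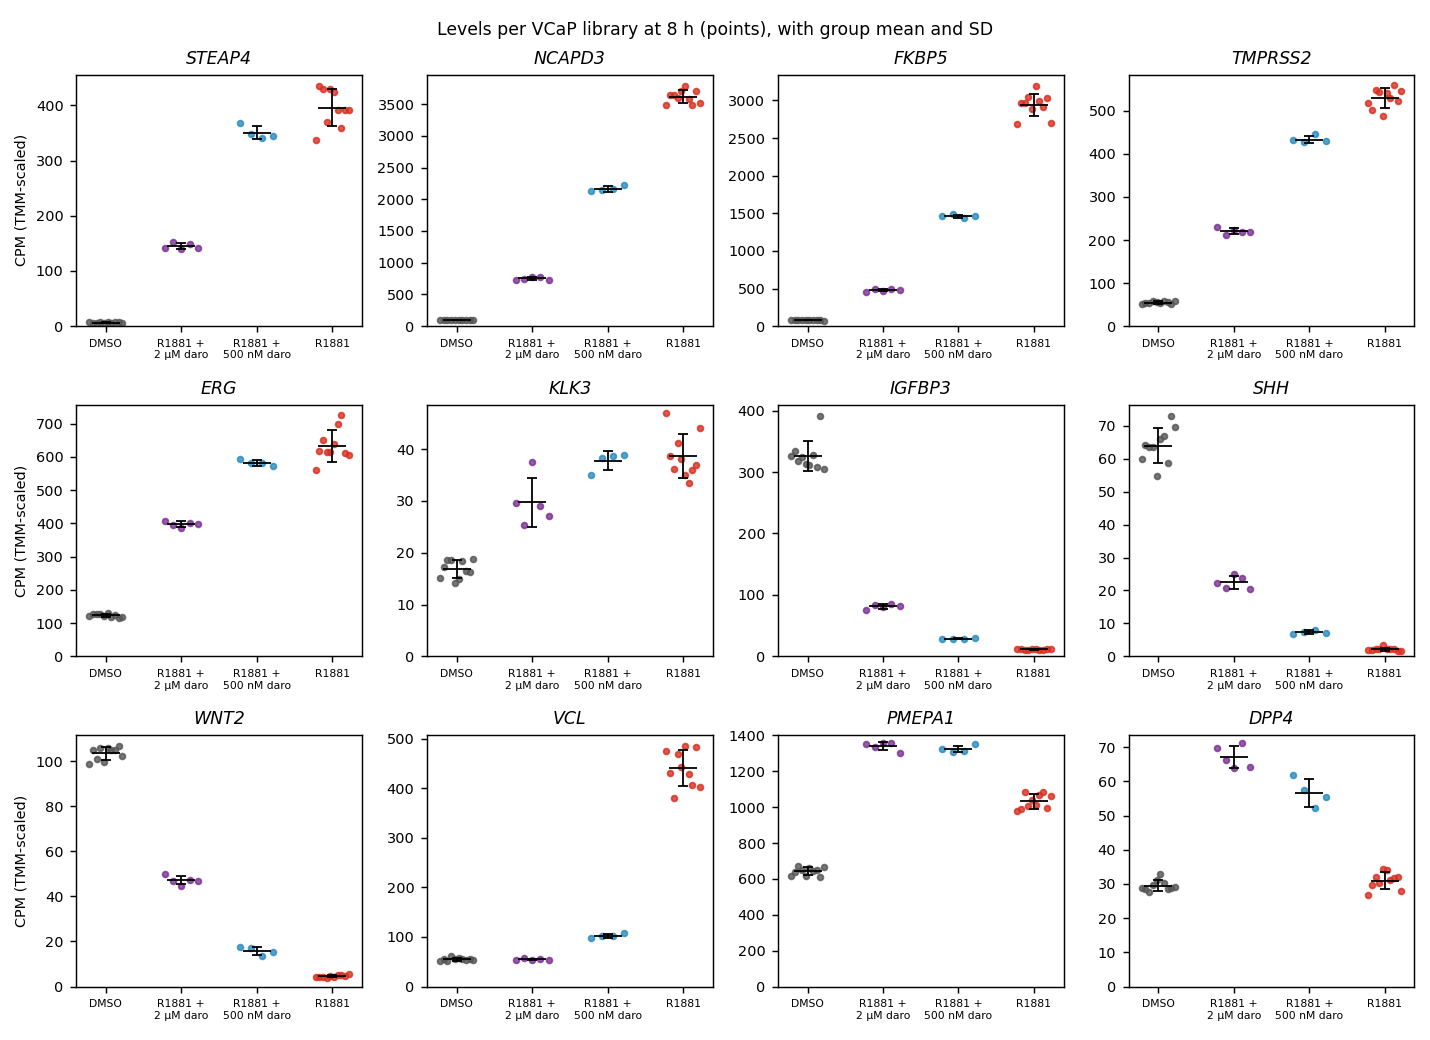
Levels of 12 genes in CPM at 8 h, with 1 point per VCaP library, the group mean as a horizontal line and the SD as the error bar, for 10 DMSO, 5 R1881 plus 2 µM darolutamide, 4 R1881 plus 500 nM darolutamide and 10 R1881 libraries. STEAP4, NCAPD3, FKBP5, TMPRSS2 and ERG with 2 µM lie between DMSO and R1881, VCL lies on the DMSO level, and PMEPA1 and DPP4 lie above both DMSO and R1881.

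TMPRSS2 and ERG, the partners of the rearrangement, rose together. TMPRSS2 was at 229, 211, 222, 220 and 219 CPM with 2 µM darolutamide and at 50.4, 54.9 and 57.9 CPM with DMSO. ERG was at 408, 395, 385, 401 and 399 CPM against 117, 124 and 131 CPM. No treated library reached into the DMSO range for either gene, with log2 fold changes of 2.01 ± 0.03 and 1.69 ± 0.03 (edgeR adjusted p = 3.22e-47 and 9.20e-43). R1881 alone gave 3.28 for TMPRSS2 and 2.36 for ERG. The receptor tyrosine kinase gene IGF1R was at 517, 556, 541, 544 and 551 CPM against 188, 207 and 221 CPM, a rise by 1.39 ± 0.03.

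The kallikrein proteases of seminal fluid changed less. KLK2 was at 4300, 3800, 4330, 4150 and 4210 CPM against 2350, 2450 and 2710 CPM with DMSO, and KLK3, which encodes prostate-specific antigen, at 29.6, 25.4, 37.5, 29.0 and 27.0 CPM against 14.2, 16.9 and 18.8 CPM. Neither gene's groups overlapped, and the rises were 0.76 ± 0.03 and 0.82 ± 0.07 on the log2 scale (edgeR adjusted p = 2.37e-27 and 1.63e-14). Since KLK2 and KLK3 are neighbouring paralogs on chromosome 19 and the handling of reads with several matches is not given in the sources used here, their counts may be partly shared. R1881 alone raised KLK2 by 0.98 and KLK3 by 1.20. ACPP, the prostatic acid phosphatase gene, moved the other way, with 5090, 5190, 4720, 5090 and 5110 CPM against 5480, 5920 and 6230 CPM, a fall by 0.22 ± 0.04 (edgeR adjusted p = 1.77e-05). The pioneer factor gene FOXA1 rose by 0.15 ± 0.03, whereas R1881 alone lowered it (-0.25 ± 0.02), and with 2 µM it stood 0.41 ± 0.03 above R1881. The mediator subunit gene MED1 rose by 0.13 ± 0.04, from 112 to 130 CPM with DMSO to 124 to 144 CPM. For MED1 these ranges overlap, and its edgeR adjusted p was 0.0612 against DMSO libraries 6 to 10 alone and 0.0551 without 2 µM replicate 2.

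Among 76 tested genes of a list of androgen-induced genes, 61 rose and 2 fell, with a median log2 fold change of 0.74, beside 15.4% higher and 12.0% lower over all genes. The members that rose include MAK, a germ cell kinase (3.05, from at most 0.32 CPM with DMSO), ALDH1A3, a retinaldehyde dehydrogenase (1.48), SLC26A2, a sulfate transporter (1.47), and TRPM8, a cold-sensing ion channel (1.38). ACPP and PTPN21 were the 2 that fell. For this list R1881 alone gave 67 higher and 7 lower with a median of 1.31, beside 32.8% and 34.1% over all genes. The mean log2 CPM over the 76 genes was 5.69 to 5.73 in the DMSO libraries, 6.53 to 6.58 with 2 µM darolutamide, 7.02 on average with 500 nM and 7.14 to 7.29 with R1881 alone, and the 4 groups did not overlap.

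Of 25 tested androgen-repressed genes, 16 fell and 4 rose, with a median of -0.53, beside 12.0% lower and 15.4% higher over all genes. DPP4, described below, was among the 4 that rose, by 1.18 ± 0.05. Several of those that fell belong to androgen disposal. UGT2B15, which attaches glucuronic acid to androgens, was at 1.99, 2.52, 2.19, 2.32 and 2.44 CPM against 10.4, 12.2 and 14.3 CPM with DMSO. The groups were far apart, and it fell by 2.41 ± 0.14 (edgeR adjusted p = 1.06e-21). Its close paralog UGT2B17, whose reads may be shared with it, fell by 2.20, and UGT2B10 and UGT2B7 by 0.75 and 0.98. Of 18 enzymes of steroid metabolism and glucuronidation, 9 fell and 2 rose. The aldo-keto reductases AKR1C1, AKR1C2 and AKR1C3, also a paralog family, were at log2 fold changes of -1.12, -1.20 and -1.33 and all fell, AKR1C3 being the enzyme that makes testosterone from androstenedione. BCHE, the butyrylcholinesterase gene (-1.64), the chemokine receptor gene ACKR3 (-1.61), the opioid receptor gene OPRK1 (-1.13) and FOLH1, which encodes prostate-specific membrane antigen (-1.21), fell as well.

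In the list of steroid responses shared with glucocorticoids, 12 of 21 tested genes rose and 3 fell. Over all genes, 15.4% were called higher and 12.0% lower. SNAI2, a zinc-finger repressor, rose by 4.12 from at most 0.14 CPM with DMSO to 1.01 to 1.41 CPM, the transcription factor genes ZBTB16 and CEBPD by 1.26 and 1.17, and the circadian repressor gene PER1 by 0.62. ERRFI1, an inhibitor of the EGF receptor, was at 49.3, 50.6, 46.5, 51.0 and 48.8 CPM against 19.9, 23.0 and 25.6 CPM, and rose by 1.10 ± 0.05. The groups did not overlap, yet R1881 alone took ERRFI1 to 741 to 948 CPM, a rise by 5.19. SGK1, a kinase of ion transport and survival, had 0.74 with 2 µM darolutamide and 4.24 with R1881 alone. GADD45B rose by 0.53, while TSC22D3, a glucocorticoid-induced leucine zipper gene, had 0.00 and did not pass the test.

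**Figure D3:**
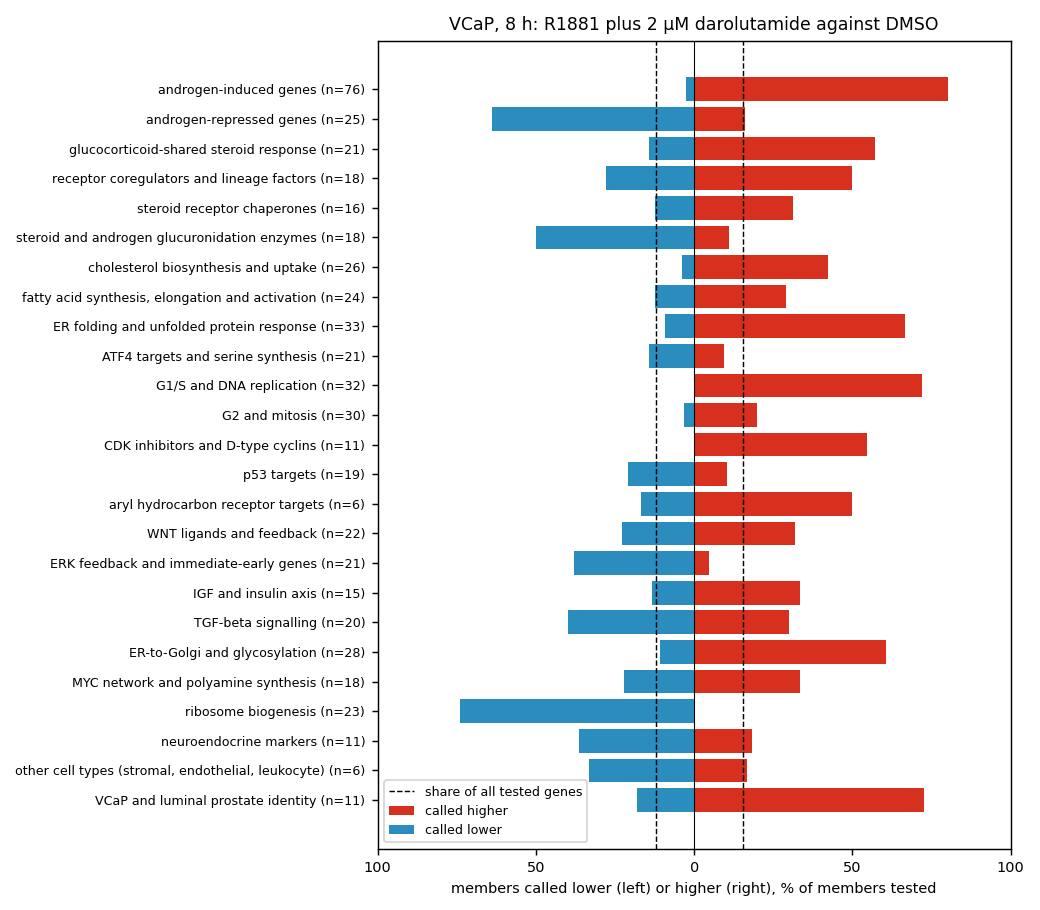
Percentage of the tested members of 25 gene lists (n per list in parentheses) called higher, to the right in red, or called lower, to the left in blue, with R1881 plus 2 µM darolutamide against DMSO at 8 h. The dashed lines mark the shares over all tested genes, 15.4% higher and 12.0% lower. The lists of androgen-induced genes (61 of 76), prostate identity (8 of 11) and G1/S and DNA replication (23 of 32) reach furthest to the right and that of ribosome biogenesis furthest to the left.

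Many mRNAs of the secretory pathway were slightly higher, where 15.4% of all genes were called higher and 12.0% lower. Of 33 tested genes of protein folding in the endoplasmic reticulum and the unfolded protein response, 22 rose and 3 fell, with a median log2 fold change of only 0.17, compared with 30 and 2 and a median of 1.02 for R1881 alone, which called 32.8% of all genes higher and 34.1% lower. ERN1, the stress sensor kinase of the pathway, had the largest rise, with 46.2, 47.2, 48.1, 49.5 and 48.4 CPM against 20.5, 22.5 and 25.5 CPM. That was a rise by 1.07 ± 0.04 without overlap (edgeR adjusted p = 2.16e-29). EDEM1, which sends misfolded glycoproteins to degradation, rose by 0.69, the chaperone HSPA5 by 0.30 and its co-chaperones DNAJB9 and DNAJC3 by 0.53 and 0.33. XBP1 (-0.13) and the collagen-related factor CREB3L1 (-0.74) fell. Of 28 genes of transport to the Golgi and glycosylation, 17 rose and 3 fell, led by UAP1 (1.24), which makes the sugar donor for N-glycans, and ST6GALNAC1 (1.06), while the glycosyltransferase genes GALNT3 (-0.88) and GCNT2 (-0.65) fell.

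Lipid genes moved in part, where all genes gave 15.4% higher and 12.0% lower. In cholesterol biosynthesis and uptake, 11 of 26 tested genes rose and 1, SQLE, fell, but the median was 0.02. The sterol carrier STARD4 rose by 0.81 and the isomerase IDI1 by 0.47, while the regulators SREBF1 and SREBF2 had -0.25 and -0.01 and did not pass the test. Of 24 genes of fatty acid synthesis, elongation and activation, 7 rose and 3 fell, the latter a share near that over all genes. ACSL3, which activates fatty acids for lipid droplets, rose by 1.04 ± 0.05 and the elongase ELOVL7 by 0.74 ± 0.05, the fatty acid carrier FABP5 fell by 0.63, and the synthase FASN (-0.15) and desaturase SCD (-0.06) did not pass.

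Genes of DNA replication were higher than with DMSO. Of 32 genes of the G1/S transition and replication, 23 rose and 0 fell, with a median of 0.24, against 16 higher and 5 lower and a median of 0.09 for R1881 alone, where the shares over all genes were 32.8% and 34.1%. CCNE2, the cyclin that opens S phase with CDK2, was at 37.6, 42.2, 36.4, 42.2 and 37.5 CPM against 23.4, 25.9 and 31.9 CPM. This rise of 0.59 ± 0.06 (edgeR adjusted p = 8.00e-13) left no overlap. CDC6, a loader of the replicative helicase, rose by 0.52 ± 0.05, the activating phosphatase CDC25A by 0.48 and the transcription factor E2F1 by 0.38. Over the 32 genes the mean log2 CPM was 4.64 to 4.70 with DMSO and 4.90 to 4.94 with 2 µM darolutamide. Of 30 genes of G2 and mitosis, 6 rose and 1 fell, with a median of 0.01. Over all genes, 15.4% were called higher and 12.0% lower with 2 µM darolutamide against DMSO. The D-type cyclin genes CCND1 (0.37) and CCND3 (0.35) rose, as did the partner kinase CDK6 (1.46, from 0.86 to 1.64 CPM with DMSO to 2.54 to 4.12 CPM) and the inhibitors CDKN2B (0.71) and CDKN2D (0.55).

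Most mRNAs of ribosome biogenesis genes were lower, where 12.0% of all genes were called lower and 15.4% higher. Of 23 tested genes of ribosome biogenesis, 17 fell and 0 rose, with a median of -0.19, where R1881 alone gave 23 lower with a median of -0.58 and 34.1% of all genes lower. GNL3, the nucleolar GTPase nucleostemin, was at 200, 206, 191, 194 and 202 CPM against 235, 253 and 268 CPM and fell by 0.35 ± 0.04 without overlap. NOLC1, a nucleolar phosphoprotein, fell by 0.23 ± 0.03, the pseudouridine synthase DKC1 by 0.28 and the polymerase I subunit gene POLR1A by 0.20. The polyamine genes SMS and ODC1, which encode spermine synthase and ornithine decarboxylase, rose by 1.15 ± 0.04 and 0.45 ± 0.04.

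Growth factor pathways were split, where all genes gave 15.4% higher and 12.0% lower. Of 21 ERK feedback and immediate-early genes, 8 fell and 1 rose, with a median of -0.43. The ERK phosphatase DUSP6 fell by 1.01, the feedback inhibitors SPRY4 and SPRY1 by 0.66 and 0.43 and the AP-1 subunit FOSL2 by 0.52, and SPRED1, an inhibitor of RAS signalling, rose by 0.80. R1881 alone raised both FOSL2 (0.43 ± 0.04) and SPRED1 (2.20 ± 0.06). Of 22 WNT genes, 7 rose and 5 fell. The receptor FZD5 was at 45.2, 50.0, 45.9, 47.7 and 42.4 CPM against 10.8, 12.9 and 15.3 CPM, a rise by 1.82 ± 0.05 without overlap, and the receptor FZD8 rose by 1.43. The stem cell receptor gene LGR5 was called higher at 0.19 to 0.65 CPM against at most 0.14 CPM, which is a handful of reads. The ligand WNT2 fell from 98.8, 105 and 107 CPM with DMSO to 49.9, 46.9, 44.8, 47.2 and 46.9 CPM, by 1.13 ± 0.06. WNT4 and WNT2B fell by 0.72 and 0.62 and WNT7B rose by 0.92.

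Among genes that encode partners of the receptor, the median log2 fold changes were 0.12 for coregulators and lineage factors and -0.01 for chaperones. Of 18 coregulators and lineage factors, 9 rose and 5 fell, beside 15.4% higher and 12.0% lower over all genes. The epithelial factor GRHL2 rose by 0.48 ± 0.03, the coactivator NCOA2 fell by 0.52 ± 0.04, and GATA2 (-0.71), HOXB13 (-0.56) and the glucocorticoid receptor gene NR3C1 (-0.49) fell. Of 16 steroid receptor chaperones, 5 rose and 2 fell, the latter a share near that over all genes. FKBP5, described above, belongs to this list and rose by 2.59 ± 0.04. DNAJB1 rose by 0.35 ± 0.03 and HSPH1 by 0.25, whereas HSP90AA1 (0.11) and HSP90AB1 (-0.06) did not pass the test.

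The distance to the R1881 state was tested against the libraries with R1881 alone, where 10038 genes (52.1%) differed from R1881 plus 2 µM darolutamide. Of the genes called against both DMSO and R1881, 2041 lay above DMSO and below R1881 and 1687 below DMSO and above R1881. A further 1046 were called against DMSO and not against R1881, 5795 against R1881 and not against DMSO, and 8182 against neither. Both tests use the same 5 libraries with 2 µM darolutamide. To express the change as a share of the R1881 change without common controls, DMSO libraries 1 to 5 were used for 2 µM darolutamide and DMSO libraries 6 to 10 for R1881. Against DMSO libraries 1 to 5, 2382 of all 19266 tested genes were called higher with 2 µM and 1915 lower. With all 10 DMSO libraries these shares were 15.4% and 12.0%. Of 1202 genes that R1881 raised by more than 1 on the log2 scale, 732 were called higher with 2 µM, 8 lower and 462 were not called, and the median share of the log2 fold change was 29.0% (quartiles 14.2% and 48.3%). Of 1686 genes that R1881 lowered by more than 1, 828 were called lower, 4 higher and 854 were not called, with a median share of 28.9% (18.0% and 39.8%).

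Some genes were at or near the R1881 level. SLC45A3, the prostate sugar transporter gene known as prostein, was at 834, 752, 879, 797 and 727 CPM with 2 µM darolutamide and at 236, 282 and 359 CPM with DMSO, a rise by 1.50 ± 0.08 against 1.39 with R1881 alone. Its libraries with R1881, at 602 to 847 CPM, overlapped those with the antagonist, and the difference between them was 0.12 ± 0.08 (edgeR adjusted p = 0.220). PRR15L, a proline-rich protein gene, rose by 1.19 ± 0.07 and stood at -0.06 ± 0.07 from R1881, and UAP1 at -0.08 ± 0.05. WWTR1, the coactivator TAZ of the Hippo pathway, rose by 1.18 ± 0.07 and stood at 0.15 ± 0.07 from R1881 (edgeR adjusted p = 0.0533). Among the falls, the stress-responsive SESN1 was at 60.0, 62.8, 59.2, 61.1 and 60.7 CPM against 121, 136 and 142 CPM, a fall by 1.14 ± 0.05, and differed from R1881 by 0.04 ± 0.05.

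In other genes the R1881 response was not detected with 2 µM darolutamide. VCL, which encodes the focal adhesion protein vinculin, was at 52.6, 57.0, 54.1, 55.9 and 53.9 CPM with the antagonist and at 50.8, 55.1 and 61.0 CPM with DMSO, while R1881 alone gave 380 to 486 CPM. The treated libraries lay within the DMSO range, and the log2 difference was -0.01 ± 0.05 (edgeR adjusted p = 0.905). ADGRG2, an adhesion receptor of the male genital tract, was at 2.14, 3.47, 2.92, 3.61 and 2.63 CPM against 2.14, 2.76 and 3.27 CPM (0.14 ± 0.12), with 47.9 to 65.2 CPM under R1881. PHF19 (0.08 ± 0.07), a subunit of Polycomb complex 2, and the GTPase activator TBC1D1 (-0.01 ± 0.07) were likewise not called. SPDEF, an epithelial factor of secretory cells, was at 179, 122, 195, 140 and 124 CPM, within the wide DMSO range of 65.5 to 206 CPM, so its 0.40 ± 0.22 leaves room for a moderate rise. Of genes lowered by R1881, the arginase gene ARG2 (-0.03 ± 0.05), the death receptor gene FAS (-0.02 ± 0.08), CRISPLD1 (-0.07 ± 0.07), the noncoding LINC00662 (0.00 ± 0.05) and CTC-459F4.1 (-0.17 ± 0.09) were not called. TIPARP, a target of the aryl hydrocarbon receptor, rose by 0.69 ± 0.07 only, with 16.9 to 18.1 CPM against 9.88 to 12.8 CPM and 315 to 418 CPM under R1881.

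**Figure D4:**
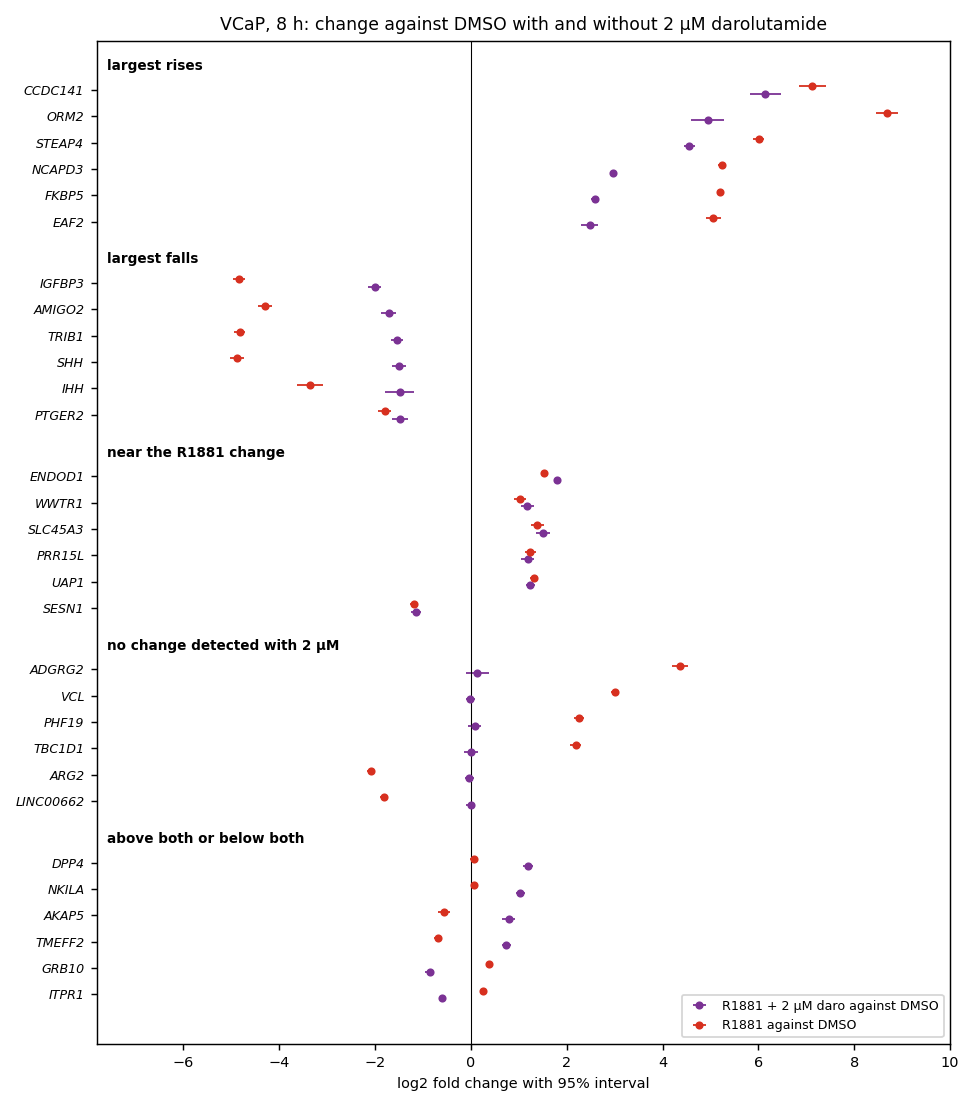
Log2 fold change against DMSO at 8 h, with its 95% interval, for R1881 plus 2 µM darolutamide (purple) and for R1881 alone (red). The 30 named genes are grouped by their kind of change, and UAP1 was named as a list member. Both comparisons use the same 10 DMSO libraries. The purple points lie between 0 and the red points for the largest rises and falls, near 0 for VCL and ARG2, and on the far side of both 0 and the red points for DPP4 and GRB10.

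A smaller class lay outside the span from DMSO to R1881. The level was above both in 353 genes and below both in 162. DPP4 (chromosome 2, 161992245 to 162074394, minus strand), a cell-surface peptidase, was at 69.9, 66.4, 64.0, 71.4 and 64.2 CPM with 2 µM darolutamide, at 27.8, 29.0 and 32.9 CPM with DMSO and at 26.9, 31.5 and 34.3 CPM with R1881. No library of either reference group reached the treated ones, and DPP4 rose by 1.18 ± 0.05 against DMSO and by 1.12 ± 0.05 against R1881 (edgeR adjusted p = 4.19e-27 and 1.48e-26). PMEPA1, an inhibitor of TGF-beta signalling, was at 1350, 1340, 1360, 1360 and 1300 CPM against 609, 646 and 671 CPM with DMSO and 980 to 1090 CPM with R1881. With 500 nM darolutamide PMEPA1 was at 1310 to 1350 CPM, and the 2 doses differed by 0.02 ± 0.03. The noncoding NKILA overlaps the 5′ end of PMEPA1 on the opposite strand and rose by 1.03 ± 0.05, and since the strand setting of the counting is not given in the sources used here, reads of the pair cannot be told apart. ENDOD1, an endonuclease-like protein gene, was at 525 to 575 CPM, above the 406 to 501 CPM with R1881 and the 150 to 168 CPM with DMSO.

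TMEFF2, a transmembrane protein of prostate and brain, and AKAP5, an anchor of protein kinase A, were lowered by R1881 alone and raised with the antagonist. TMEFF2 was at 242, 279, 236, 261 and 263 CPM against 143, 156 and 160 CPM with DMSO and 79.3 to 108 CPM with R1881, so its log2 fold change was 0.74 ± 0.05 with 2 µM and -0.69 with R1881. The 3 groups did not overlap. AKAP5 had 0.79 ± 0.07 and -0.57, and RASSF3 0.79 ± 0.05 and 0.10. Below both reference groups, GRB10, an adaptor that restrains insulin and IGF receptors, was at 43.6, 50.2, 42.4, 44.8 and 43.6 CPM against 75.8, 82.1 and 86.3 CPM with DMSO and 91.8 to 125 CPM with R1881, a fall by 0.86 ± 0.05 where R1881 gave 0.39. ITPR1, a calcium release channel, fell by 0.60 ± 0.04, the calcium-binding NUCB2 by 0.67 ± 0.05, and ASB9 and PTCHD2 by 0.59 ± 0.07 and 0.61 ± 0.17. The PTCHD2 libraries overlapped those with DMSO. Its edgeR adjusted p was 0.0615 against DMSO libraries 1 to 5 alone and 0.0752 with the replicate block on replicates 1 to 5. MAB21L3, chosen after its values were seen, was at 0.51, 0.96, 0.65, 0.88 and 0.86 CPM against 2.57, 3.47 and 4.47 CPM with DMSO and 2.11 to 4.14 CPM with R1881, a fall by 2.18 ± 0.17.

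The 2 doses of darolutamide were compared directly at 8 h. Between 2 µM and 500 nM, 3386 genes (17.6%) differed, 1450 (7.53%) higher and 1936 (10.0%) lower with 2 µM. In the list of androgen-induced genes 51 of 76 were lower with 2 µM and 2 higher, and in that of ribosome biogenesis 17 of 23 were higher and 0 lower. ERRFI1 was 2.07 ± 0.06 lower with 2 µM than with 500 nM, TIPARP 1.93 ± 0.08 lower and FKBP5 1.61 ± 0.05 lower. SHH was 1.61 ± 0.10 higher and WNT2 1.57 ± 0.08 higher. For SLC45A3 (-0.18 ± 0.10), ENDOD1 (-0.12 ± 0.05), CYP1B1 (-0.14 ± 0.09) and GRB10 (0.07 ± 0.06) the doses did not differ at the threshold.

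By 22 h the distance from DMSO had changed. The difference between the 22 h and the 8 h effect, tested as an interaction, was called in 8057 genes (41.8%), 3986 (20.7%) in the positive and 4071 (21.1%) in the negative direction. All 32 replication genes were called in the positive direction, with a median difference of 1.30. PCNA, the sliding clamp of DNA polymerases, was at 165 to 174 CPM with 2 µM darolutamide at 8 h and at 401 to 431 CPM at 22 h, while DMSO was at 138 to 149 and 123 to 142 CPM. MCM4, a subunit of the replicative helicase, went from 210 to 219 CPM to 476 to 534 CPM. The interaction was 1.42 ± 0.04 for both (edgeR adjusted p = 3.05e-33 for PCNA and 1.27e-33 for MCM4). At 22 h the mean log2 CPM over the 32 genes was 6.13 to 6.18 with 2 µM darolutamide, above the 4.97 to 5.09 with R1881 alone and the 4.66 to 4.74 with DMSO.

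The mean level of the ribosome biogenesis genes turned from lower to higher than DMSO. Of the 23 genes, 22 were called in the positive direction, and the mean log2 CPM with 2 µM darolutamide was 5.92 to 6.01 at 8 h, below the 6.05 to 6.20 with DMSO, and 6.48 to 6.52 at 22 h, above the 6.03 to 6.14. Of 26 cholesterol genes, 23 were called in the positive direction. SCD, the desaturase that makes oleate, had no called change at 8 h, with 333 to 375 CPM against 332 to 384 CPM, and stood at 1340 to 1530 CPM against 458 to 513 CPM at 22 h (interaction 1.65 ± 0.06). In contrast, 46 of 76 androgen-induced genes were called in the negative direction and 6 in the positive. STEAP4 with 2 µM darolutamide was at 141 to 153 CPM at 8 h and at 37.8 to 44.1 CPM at 22 h, with R1881 alone at 877 to 1100 CPM by then (interaction -2.04 ± 0.09). FOXO3, a growth-restraining forkhead factor, went from 276 to 291 CPM to 191 to 203 CPM while DMSO rose from 299 to 317 CPM to 346 to 363 CPM (interaction -0.73 ± 0.03). CALCOCO1, an autophagy receptor of the endoplasmic reticulum, was at 39.3 to 45.8 CPM at 8 h and 18.2 to 22.1 CPM at 22 h (interaction -1.65 ± 0.07). Its effect against DMSO was -0.26 ± 0.05 at 8 h, and the interaction also takes in the change of DMSO between the times.

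**Figure D5:**
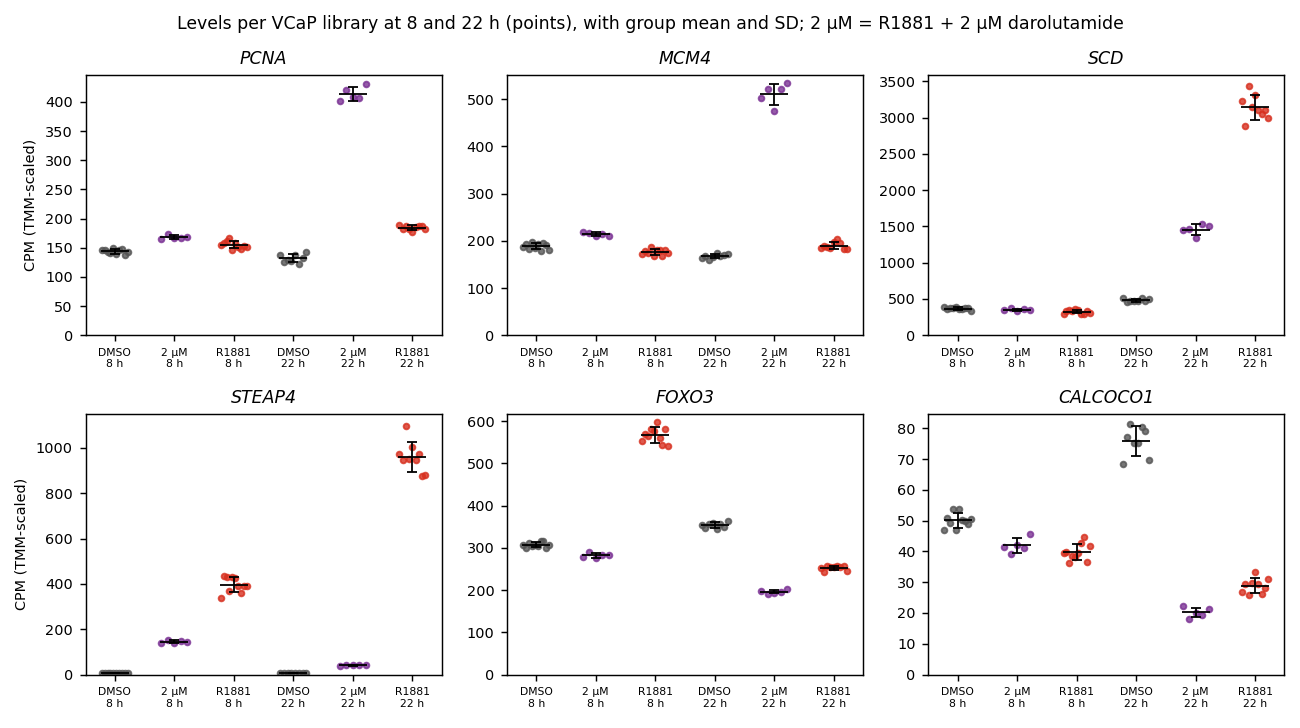
Levels in CPM of 6 genes at 8 and 22 h, with 1 point per VCaP library, the group mean as a horizontal line and the SD as the error bar, for DMSO, R1881 plus 2 µM darolutamide and R1881. PCNA and MCM4 with 2 µM stand above both other groups at 22 h, SCD lies between them, and STEAP4, FOXO3 and CALCOCO1 with 2 µM are lower at 22 h than at 8 h.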

How the data were processed

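PolyA RNA of VCaP cells was sequenced by the authors as single-end 50-cycle reads from stranded libraries. STAR was used for alignment to GRCh38 and featureCounts for counting, and the authors deposited raw counts per gene, not normalized. bcl2fastq 2.17 is named in the submitters' processing notes. The other tool versions, gene annotation and strand setting are not given in the sources used here. The paper's methods describe 5 biological replicates, while 10 libraries are labelled as DMSO at 8 h. All were used, and p-values measure the spread between libraries.

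The filter on low values (10 reads or more in 4 or more VCaP libraries) kept 19266 genes. All 8 VCaP groups (55 libraries) were fitted together in edgeR 4.0.16 (R 4.3.3) with TMM factors, glmQLFit and glmQLFTest, and p-values were adjusted by Benjamini-Hochberg over all kept genes. A gene was called at an adjusted p under 0.05. SE was obtained from the log2 fold change and the F statistic, and intervals are 95% intervals. CPM uses the TMM factors, and list means use log2 CPM with a prior count of 2. Depth ran from 12870607 to 24869001 reads in the 15 libraries, and counting error limits genes near 1 CPM or below. Same-numbered DMSO and 2 µM libraries did not deviate together, so no pairing was used. Libraries of the 15 differed by more than sampling noise. The fit was tested on simulated data. Alternatives were DESeq2 1.42.0, its size factors, other filters, a replicate block, the first principal component of library deviations as covariate, fewer control libraries, a fold limit and leaving out each library.

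The gene lists (25, from general knowledge), the naming rule and the comparison itself were chosen with earlier results of these data known. The rule took the 8 largest rises and 8 largest falls among called genes of adequate level. It took the leading called members of each list at any level, and genes the study discusses at super-enhancers whether called or not. The remaining groups were again of adequate level. They were the 5 most distant called genes above and below both DMSO and R1881, and R1881-responsive genes whose response was not detected with 2 µM. They also held called R1881-responsive genes with the highest share of the R1881 change, even beyond it. The last were the 3 genes of each direction with the smallest adjusted p in the time interaction. Further list members are examples chosen after their values were seen, and so were the promoters of KLK3 and UGT2B15. Gene coordinates are those of GENCODE 44 and promoters are from RefSeq (GRCh38.p14), matched by symbol. Some gene symbols, such as H2AFJ, are older names. The LAPC4 libraries and other data types of the study were not analysed here. Results for some genes are not reported here.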

Additional observations from a re-analysis of the deposited data

Results flagged for a closer look

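Each named gene was examined in each of the 4 VCaP groups at 8 h for a library far from the rest, by the gap of the highest or lowest library to its neighbour relative to the range of the group. This concerned 376 groups, of which 24 had such a library, and chance flags about 1 in 20 groups. With 2 µM darolutamide, replicate 3 was lowest for TRIB1 (378 CPM, next 431), ODC1 (324 CPM) and ACPP (4719 CPM), replicate 1 was lowest for CTC-459F4.1 (16.3 CPM), replicate 5 was lowest for LINC00662 (116.1 CPM) and replicate 2 was highest for ASB9 (14.4 CPM). With DMSO, replicate 9 was highest for IGFBP3 (390 CPM, next 335) and GRHL2 (261 CPM), replicate 1 for CCNE2 (31.9 CPM), replicate 10 for CCND1 (219 CPM) and replicate 4 for KLK2 (2706 CPM), and replicate 10 was lowest for ASB9 (17.5 CPM). With R1881 alone, replicate 8 was highest for ORM1 (32.9 CPM), replicate 1 for CTD-2224J9.8 (105 CPM) and replicate 5 for SHH (3.35 CPM) and LUM (3.99 CPM). With 500 nM darolutamide, replicate 2 was highest for NCOA2 (217 CPM) and ITPR1 (226 CPM), replicate 1 was highest for ACPP (5459 CPM), ARG2 (75.2 CPM) and ENDOD1 (638 CPM) and lowest for KLK3 (35.1 CPM) and SPDEF (197 CPM), and replicate 3 was lowest for CKAP2 (108 CPM).

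The effect of R1881 plus 2 µM darolutamide against DMSO differed between 22 h and 8 h in 8057 genes by the interaction term of edgeR. The 3 genes of each direction above the median level with the smallest adjusted p in this test were SCD (1.65), PCNA (1.42) and MCM4 (1.42) in the positive direction and STEAP4 (-2.04), CALCOCO1 (-1.65) and FOXO3 (-0.73) in the negative direction.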

How the results depend on the processing

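The 5289 genes called between R1881 plus 2 µM darolutamide and DMSO became 5117 with DESeq2, 5183 with its size factors, 5217 with another filter on low counts, 4601 without a filter, 5128 with only the compared groups in the fit, 7521 with the first principal component as a covariate, 4297 with DMSO libraries 1 to 5 and 5074 with libraries 6 to 10. The fold limit of 1 left 482. Leaving out 1 library gave 4540 to 5396 genes. The share of higher calls was 56.1%, and it was 47.5% without DMSO replicate 7 and 47.6% with DMSO libraries 6 to 10. The replicate block used only replicates 1 to 5 and called 4208 genes, 4034 of them also called in the main fit. Without a block, DMSO libraries 1 to 5 gave the 4297 above. The labels' replicate numbers are not stated to mark a shared batch, and the deviations of same-numbered DMSO and 2 µM libraries correlated at -0.22 to 0.18 over 5 pairs, so the block is given only here. For 2 µM against 500 nM, the principal component raised the count from 3386 to 5190 and the block gave 3348. No named gene changed direction while called. In the comparison with DMSO, KIF11, MED1 and PTCHD2 lost their call, and SPDEF and SCD gained it, under 1 to 3 of the alternatives. Genes near 1 CPM or below, such as MAB21L3, VWF and ORM1 with DMSO, rest on few reads. Counts of list members called against DMSO moved as well. Over all settings, androgen-induced genes called higher ran from 60 to 66 and ribosome biogenesis genes called lower from 14 to 20. G2 and mitosis genes called higher ran from 1 to 8, chaperones called lower from 1 to 5 and cholesterol genes called lower from 1 to 6. The causes of these shifts were not tested.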

Other observations

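Some gene groups not described above also held called members at 8 h. Of 20 tested TGF-beta genes, 8 fell and 6 rose with 2 µM darolutamide against DMSO, where all genes gave 12.0% and 15.4%. The inhibitor of DNA binding genes ID1, ID2 and ID3 fell by 0.54, 0.56 and 0.48, the pseudoreceptor gene BAMBI by 1.31, and the ligand gene TGFB2 and the receptor gene BMPR1B rose by 1.85 and 1.74. Of 15 genes of the IGF and insulin axis, 5 rose and 2 fell, with rises of the forkhead factor gene FOXO1 (0.77) and the adaptor gene IRS1 (0.51). Of 6 tested targets of the aryl hydrocarbon receptor, 3 rose and 1 fell. CYP1B1, a monooxygenase of estrogens and polycyclic compounds, was at 18.9, 20.7, 22.4, 24.5 and 21.2 CPM against 6.25, 7.36 and 8.81 CPM with DMSO and 12.2 to 16.3 CPM with R1881, above both without overlap, and CYP1A1 rose by 0.80.

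The remaining lists are given for completeness, beside 15.4% higher and 12.0% lower over all genes. Of 19 p53 targets, 4 fell and 2 rose, with falls of the apoptosis gene BBC3 (-1.37, with overlapping libraries) and of GADD45A (-0.38) and BTG2 (-0.40). Of 21 ATF4 targets and serine synthesis genes, 2 rose and 3 fell, shares near those over all genes, with VLDLR, a lipoprotein receptor, rising by 0.51 and CTH, an enzyme of cysteine synthesis, falling by 0.41. Of 18 genes of the polyamine and MYC network list, 6 rose and 4 fell. Of 11 neuroendocrine markers, 2 rose and 4 fell, ONECUT2 and INSM1 by 0.62 and 0.29 in the first direction, and CHGA and NCAM1 were at -0.28 and -0.34. Of 6 tested markers of other cell types, LUM (-1.69) and PDGFRB (-0.70) fell and VWF rose by 0.90 from 0.22 to 0.82 CPM with DMSO to 0.62 to 1.07 CPM, whose ranges overlap.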
